A study of Rhizophagus irregularis DAOM 181602=DAOM 197198 with 30 samples.

Results

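Ribonucleotide reductase in the arbuscular mycorrhizal fungus Rhizophagus irregularis DAOM197198 is described here through 2 gene models of the 30282 in each table. Model 343286 is annotated in the deposited tables as the alpha (large) subunit and model 80358 as the beta (small) subunit. Both were chosen by their identifiers with their time-course values in view, so those values are given as a description and without a test. The root set, whose values the choice did not use, was tested. Members and the lists of other models were chosen with earlier results of these data known, which limits the p-values given for them. The best database hit of 343286 is a ribonucleoside-diphosphate reductase large subunit of a fish, and that of 80358 is the small subunit RnrA of the fungus Ajellomyces dermatitidis. The modelled lengths are 2220 and 1026 bases.

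Ribonucleotide reductase turns ribonucleotides into deoxyribonucleotides and is the committed step in making the building blocks of DNA. The large subunit holds the catalytic site and the sites that sense nucleotide levels, and the small subunit holds the iron-dependent radical that starts each reaction. Electrons reach the enzyme through thioredoxin or glutaredoxin. In yeasts its transcripts are tied to S phase and to DNA damage. Arbuscular mycorrhizal fungi germinate from large spores with many nuclei and need a plant root to complete their life cycle, and strigolactones are root-released hormones that stimulate their growth before contact.

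In the time course, 80000 spores per culture were germinated in liquid medium for 2 days in the dark at 2% CO2. They then received the synthetic strigolactone GR24 at 1e-06 M, or acetone diluted 1000-fold as the control, and were collected after 1 h, 2 d, 7 d or 14 d. In a separate root set, 60000 spores lay for 14 d on a cellophane membrane over carrot hairy roots, or over the same medium without roots. Of 30 labelled samples, 25 had a column of counts. The groups held 3 GR24 and 2 acetone libraries at 1 h, 2 and 3 at 2 d, 2 and 2 at 7 d, 3 and 3 at 14 d, and 3 root-exudate and 2 no-root libraries; the other 5 samples were not analysed here. The labels do not say that replicates came from separate cultures, so error and p-values measure the spread between these samples, which may be technical.

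Gene reads per library ran from 5786080 to 11812317. Each within-group pair of libraries differed by more than sampling noise, with a chi-square per degree of freedom of 2.66 to 9.09 over 20 pairs. Every read of the 2 members matched a single model. Sample titles and column headings of the root table conflict, since the columns headed as control belong to samples titled root exudates. The titles were followed, and every direction in the root set reverses if the headings are right. DNA synthesis itself was not measured. Levels are shares of each library's reads, so fewer nuclei or hyphae carrying a transcript and less transcript in each cannot be told apart.

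The large-subunit transcript was higher at 2 d than at 1 h in both arms, at 7 d stood near its 2 d level with GR24 and below it with acetone, and was lowest in both arms at 14 d. In CPM, which are reads scaled to a common library total with TMM factors, 343286 was at 45.6 and 44.0 in the acetone libraries at 1 h and at 48.8, 45.7 and 51.0 with GR24. At 2 d it was at 76.2, 143.6 and 104.4 with acetone and at 144.7 and 112.9 with GR24. At 7 d it was at 62.5 and 59.8 CPM with acetone and at 135.1 and 128.6 CPM with GR24. In CPM the GR24 libraries lay just above the acetone libraries at 1 h, the arms overlapped at 2 d, and the GR24 libraries lay far above at 7 d. The gap at 1 h depended on the scaling. In deposited RPKM, a scale per model length and library total, GR24 replicate 2 was at 19.43 and acetone replicate 3 at 19.46. At 14 d the acetone libraries held 19.4, 22.3 and 24.7 CPM and the GR24 libraries 30.6, 23.3 and 25.9 CPM, so the arms overlapped again.

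The small-subunit transcript had the same order of arms at 7 d, but its 1 h level was nearer to its 2 d level. Model 80358 was at 67.1 and 63.6 CPM with acetone and at 68.2, 57.4 and 78.6 CPM with GR24 at 1 h. At 2 d its acetone libraries held 66.7, 128.5 and 94.9 CPM and its GR24 libraries 136.6 and 97.2 CPM. At 7 d it was at 36.6 and 35.8 CPM with acetone and at 85.5 and 77.4 CPM with GR24. The arms overlapped at 1 h and 2 d and were apart at 7 d. At 14 d it was at 10.6, 12.6 and 8.93 CPM with acetone and 12.5, 11.7 and 15.8 CPM with GR24, which is 67 to 171 reads per library.

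**Figure D1:**
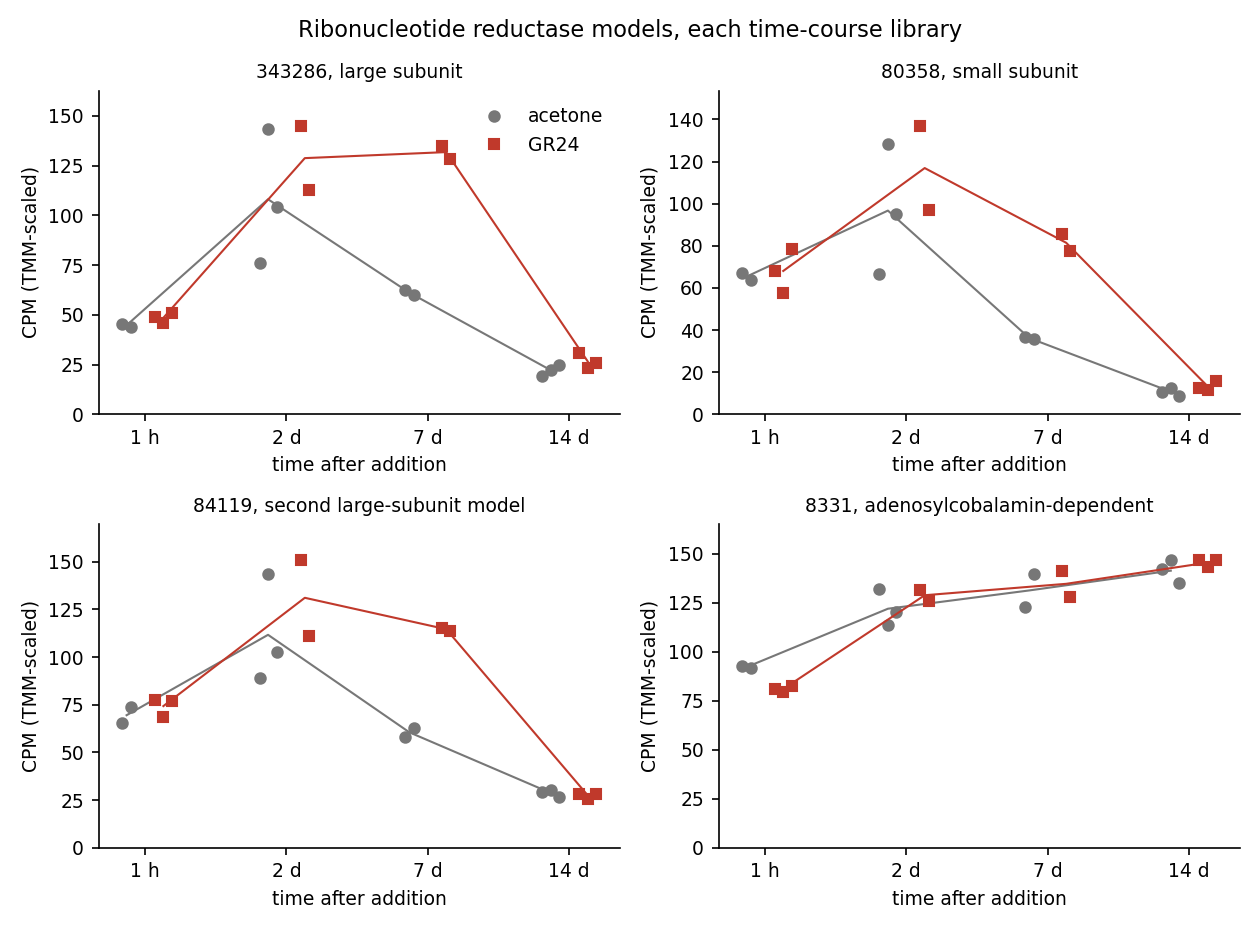
TMM-scaled CPM (y axis, from 0) of the 4 ribonucleotide reductase models in each of the 20 time-course libraries against time after addition (x axis); circles are acetone, squares GR24, and lines join group means. In the panels for 343286, 80358 and 84119 the GR24 libraries lie above the acetone libraries at 7 d, while 8331 shows no such gap.

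The log2 fold changes put the same values on the scale of the fit (edgeR, each time fitted on its own libraries, GR24 minus acetone). For 343286 they were 0.12 ± 0.108 (SE) at 1 h, 0.23 ± 0.326 at 2 d, 1.12 ± 0.102 at 7 d and 0.25 ± 0.123 at 14 d. For 80358 they were 0.060 ± 0.109, 0.25 ± 0.358, 1.18 ± 0.121 and 0.32 ± 0.166. In linear terms the 7 d values are 2.17-fold for the large and 2.26-fold for the small subunit. Without 1 of the 4 libraries at a time the 7 d value ran from 1.08 to 1.15 for 343286 and from 1.10 to 1.25 for 80358.

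The errors at 2 d were wider than at the other times. In the acetone arm, replicate 1 was lowest and replicate 2 highest for both members and for the second large-subunit model 84119. Leaving out acetone replicate 2 gave a GR24 value at 2 d of 0.49 for the large and 0.50 for the small subunit. Without GR24 replicate 1 the small subunit stood at -0.015, and without acetone replicate 1 the large subunit stood at 0.040. The GR24 effect at 7 d exceeded that at 2 d by 0.88 ± 0.284 (SE) on the log2 scale for 343286 and by 0.92 ± 0.348 for 80358, and the effect at 14 d was below that at 7 d by a log2 difference of -0.86 ± 0.299 and -0.85 ± 0.400.

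With acetone, the log2 change of 343286 was 1.28 ± 0.205 (SE) from 1 h to 2 d, -0.84 ± 0.200 from 2 d to 7 d and -1.45 ± 0.217 from 7 d to 14 d. With GR24 the corresponding changes were 1.40 ± 0.193, 0.039 ± 0.204 and -2.31 ± 0.198. For this subunit the GR24 step lay above the acetone step from 2 d to 7 d and below it from 7 d to 14 d. The differences were similar in size, opposite in sign, and both rest on the same 7 d libraries.

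For 80358 the acetone changes were 0.58 ± 0.231, -1.43 ± 0.249 and -1.76 ± 0.293, and the GR24 changes 0.78 ± 0.224, -0.51 ± 0.246 and -2.61 ± 0.255. The fitted increase up to 2 d was smaller for the small than for the large subunit, and the later decreases were larger, in both arms. Without acetone replicate 2 at 2 d the acetone step from 1 h to 2 d was 1.02 for the large and 0.32 for the small subunit. Without GR24 replicate 1 at 2 d, the small-subunit step from 2 d to 7 d was -0.25.

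Ordered by deposited RPKM, a scale per model length and library total, 343286 had its highest group mean with GR24 at 7 d (60.3 ± 2.19, SD, n = 2) and its lowest with acetone at 14 d (10.0 ± 1.22, n = 3). GR24 at 2 d (57.8 ± 11.6), no roots (51.0 ± 1.47), acetone at 2 d (50.2 ± 16.1) and root exudates (44.6 ± 3.57) came next, each overlapping its neighbour. Acetone at 7 d (27.3 ± 0.914) stood apart from the groups above and below. The 1 h groups (GR24 20.9 ± 1.29, acetone 19.8 ± 0.428) overlapped each other, and so did the 14 d groups (GR24 12.2 ± 1.71).

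The small subunit 80358 was highest with no roots (117 ± 6.27 RPKM, SD, n = 2) and again lowest with acetone at 14 d (10.5 ± 1.74, n = 3). GR24 at 2 d (114 ± 30.0), acetone at 2 d (97.1 ± 31.9), GR24 at 7 d (80.6 ± 5.85), root exudates (70.6 ± 9.45), GR24 at 1 h (63.4 ± 10.2) and acetone at 1 h (62.4 ± 2.13) followed, each overlapping its neighbour. Acetone at 7 d (35.0 ± 0.567) stood apart from both of its neighbours, and GR24 at 14 d (13.2 ± 2.12) overlapped acetone at 14 d. Both members thus ranged widely over the groups, 6.00-fold between the highest and lowest mean for the large and 11.1-fold for the small subunit. Time course and root set differ in medium and spore number, so the levels stand side by side without a test.

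Per base of transcript model, reads of 80358 outnumbered those of 343286 about 3 to 1 at 1 h, and were near parity at 14 d. The second large-subunit model, 84119, is not counted in this ratio. The ratio of small to large reads per base was 3.16 ± 0.0394 (SD, n = 2) with acetone and 3.02 ± 0.308 (n = 3) with GR24 at 1 h. It was 1.93 ± 0.0377 and 1.95 ± 0.128 at 2 d, 1.28 ± 0.0221 and 1.34 ± 0.0486 at 7 d, and 1.06 ± 0.245 and 1.10 ± 0.219 at 14 d. The arms overlapped at 1 h, 2 d and 14 d, and at 7 d the lowest GR24 library, at 1.302, lay just above the highest acetone library, at 1.297. The mean ratio was lower at each later time in both arms, while the arms stood close to each other at each time. With GR24 the 7 d and 14 d libraries overlapped, since replicate 3 was at 1.302 at 7 d and at 1.321 at 14 d.

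**Figure D2:**
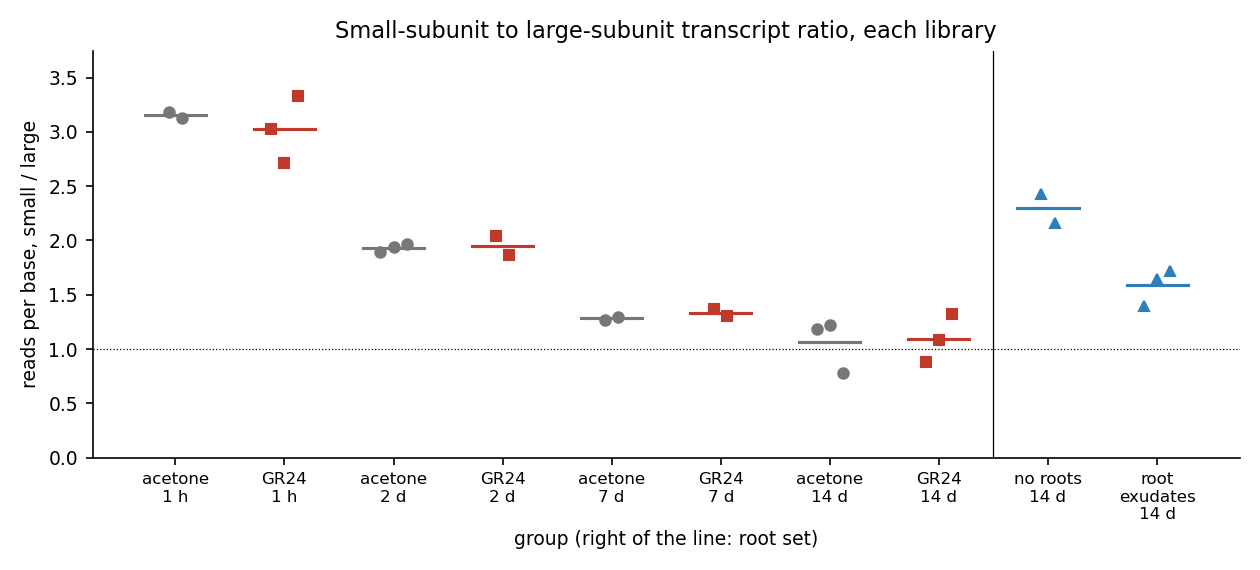
Reads per base of 80358 divided by reads per base of 343286 (y axis, from 0) in each of the 25 libraries, by group (x axis); bars are group means and the dotted line marks a ratio of 1. The ratio is near 3 at 1 h, near 1 at 14 d, and 2.29 against 1.59 in the no-root and root-exudate groups.

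Another model, 84119, is also annotated as an alpha subunit, is 2424 bases long and has a fungal large-chain best hit. At 7 d it was higher with GR24: 58.1 and 62.9 CPM with acetone and 115.3 and 113.9 CPM with GR24. The log2 fold change was 0.92 ± 0.104 (SE; edgeR quasi-likelihood test, adjusted p = 1.98e-09), and it ran from 0.86 to 0.98 and stayed called in each of 8 alternative settings. It did not pass at 1 h (0.10 ± 0.0955, adjusted p = 0.622), 2 d (0.21 ± 0.270, adjusted p = 0.769) or 14 d (-0.060 ± 0.103, adjusted p = 0.873) in the same test.

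Over time, 84119 rose from 1 h to 2 d by 0.69 ± 0.155 with acetone (edgeR adjusted p = 0.00151) and by 0.81 ± 0.150 with GR24 (adjusted p = 0.000177). It fell from 2 d to 7 d with acetone by 0.89 ± 0.158 on the log2 scale (edgeR adjusted p = 0.000475), whereas with GR24 the step was -0.19 ± 0.162 (adjusted p = 0.570). From 7 d to 14 d it fell in both arms, by 1.08 ± 0.169 and 2.06 ± 0.158 (edgeR adjusted p = 0.000149 and 2.37e-08). Relative to 343286, its reads per base were 1.42 ± 0.156 times as many with acetone at 1 h and 0.908 ± 0.0794 times at 7 d. At 14 d with acetone they were 1.20 ± 0.204 times as many. The GR24 values were 1.40 ± 0.0417 at 1 h, 0.797 ± 0.0208 at 7 d and 0.956 ± 0.0934 at 14 d (SD). With 84119 added, the small subunit with acetone stood at 1.31 ± 0.100 per summed large-subunit base at 1 h. At 14 d with acetone it stood at 0.479 ± 0.0779. The GR24 values were 1.26 ± 0.129 at 1 h and 0.558 ± 0.0925 at 14 d.

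Model 8331 carries an annotation for an adenosylcobalamin-dependent ribonucleoside-triphosphate reductase, a class of the enzyme that uses a vitamin B12 cofactor and works without the small subunit. It did not pass the edgeR test of GR24 against acetone at 1 h (log2 -0.18 ± 0.0847, adjusted p = 0.205), 2 d (0.075 ± 0.0856, adjusted p = 0.722), 7 d (0.034 ± 0.0945, adjusted p = 0.933) or 14 d (0.039 ± 0.0527, adjusted p = 0.824), although its 3 GR24 libraries at 1 h lay below its 2 acetone libraries. It rose from 1 h to 2 d, by 0.40 ± 0.0753 with acetone (edgeR adjusted p = 5.80e-05) and 0.67 ± 0.0742 with GR24 (adjusted p = 4.02e-09), and then had steps between 0.065 and 0.12 that did not pass.

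At 14 d, when 343286 was at its lowest, 8331 was at 142.3, 146.8 and 134.9 CPM with acetone and 146.8, 143.1 and 146.6 CPM with GR24. Its reads per base were 2.09 ± 0.0412 times those of 343286 with acetone at 1 h and 6.57 ± 0.965 times at 14 d (SD). With GR24 at 7 d they were 1.04 ± 0.0354 times, near parity.

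Among the 8 other models for deoxynucleotide synthesis, thymidylate synthase and dUTPase were higher with GR24 at 7 d. Both serve the making of dTMP: dUTPase splits dUTP to dUMP and thymidylate synthase methylates dUMP. Of the 7 models that could be tested at 7 d, these 2 were called higher and none lower (median log2 fold change 0.12), where 4.31% of all 14269 models tested were called higher and 6.43% in either direction (median 0.0015).

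The thymidylate synthase model 11517 held 32.0 and 27.4 CPM with acetone and 64.0 and 52.0 CPM with GR24 at 7 d. Its log2 fold change was 0.99 ± 0.139 (SE; edgeR adjusted p = 5.13e-07). The dUTPase model 338821 held 99.9 and 108.3 CPM with acetone and 242.2 and 198.0 CPM with GR24, a log2 fold change of 1.08 ± 0.0959 (edgeR adjusted p = 4.35e-12). In both cases the size of the change was close to that of the 2 subunits.

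The other deoxynucleotide models gave smaller values at 7 d. A thymidylate kinase/adenylate kinase model, 177656, which would carry dTMP to dTDP, stood at 0.57 ± 0.191 (edgeR adjusted p = 0.0601), and a second such model, 79346, at 0.069 ± 0.205 (adjusted p = 0.939). Deoxycytidylate deaminase (344715), a source of dUMP, was at 0.12 ± 0.128 (edgeR adjusted p = 0.744). Dihydrofolate reductase (345463), which regenerates the folate that thymidylate synthase spends, was at -0.10 ± 0.118 (adjusted p = 0.801). Nucleoside diphosphate kinase (256658), which makes triphosphates from all diphosphates, was at 0.013 ± 0.0845 (edgeR adjusted p = 0.972). The thymidine kinase/deoxyguanosine kinase model 331727 had group means of 0.80 to 2.44 CPM and was too low to be tested at 7 d.

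At 1 h, 2 d and 14 d edgeR called none of the 8 models, and DESeq2 called none either. Without acetone replicate 2 at 2 d, edgeR called 2 of them higher. At an unadjusted p under 0.05, edgeR had 1 higher and 0 lower at 1 h, and 0 in either direction at 2 d and 14 d. Over all models, 10.4% were called in either direction at 1 h, 2.15% at 2 d (1.02% higher, 1.13% lower) and 3.25% at 14 d (1.29% and 1.95%).

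Over time, thymidylate synthase 11517 and dUTPase 338821 had steps of the same sign as those of the large subunit with acetone. With acetone, 11517 rose by 1.77 ± 0.191 from 1 h to 2 d (edgeR adjusted p = 3.13e-08), fell by 0.69 ± 0.175 to 7 d (adjusted p = 0.00457) and fell by 1.03 ± 0.189 to 14 d (adjusted p = 0.000241). For 338821 the acetone steps were 1.08 ± 0.170, -0.64 ± 0.166 and -1.12 ± 0.173 (edgeR adjusted p = 0.000115, 0.0108 and 0.000294). The call for 338821 from 2 d to 7 d was lost without either acetone library at 7 d (adjusted p = 0.0788 without replicate 1 and 0.0646 without replicate 2), and that for 11517 without replicate 2 (adjusted p = 0.124). With GR24, neither passed between 2 d and 7 d (11517: -0.045 ± 0.177, edgeR adjusted p = 0.924; 338821: 0.061 ± 0.171, adjusted p = 0.893).

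Counted over the list, the acetone steps called 3 higher and 2 lower of 8 from 1 h to 2 d, 0 and 4 from 2 d to 7 d, and 0 and 4 from 7 d to 14 d. The shares of all 15712 models called in these steps were 39.4% (20.7% higher, 18.7% lower), 25% (12.1% and 13%) and 21.8% (10.4% and 11.5%). The GR24 steps called 3 higher and 2 lower, 0 and 1, and 0 and 3, where 50.9% (27.1% higher, 23.8% lower), 10.3% (4.7% and 5.6%) and 25% (11.8% and 13.2%) of all models were called. In the test of whether the GR24 effect differs with time, 10.1% of the 15712 models passed, among them 11517, 338821 and 84119. Over 24 alternative settings 11517 passed in 19, 338821 in 15 and 84119 in 8, and each lost its call without acetone replicate 2 or GR24 replicate 2 at 7 d, among other libraries.

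**Figure D3:**
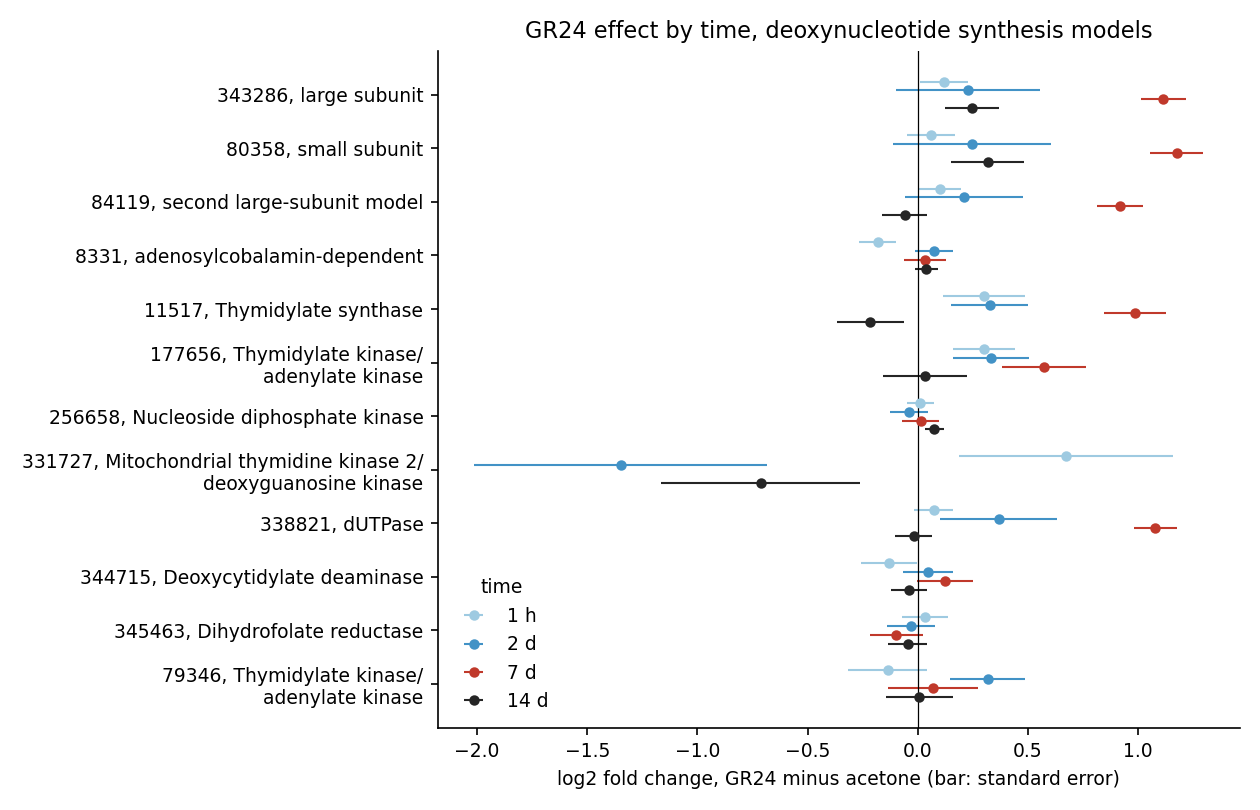
Log2 fold change of GR24 minus acetone (x axis, points with standard-error bars) for the 4 ribonucleotide reductase models and the 8 other deoxynucleotide synthesis models (y axis), coloured by time. At 7 d the points of 343286, 80358, 84119, 11517 and 338821 lie between 0.92 and 1.18, and 331727 has no point there.

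None of 6 models described as thioredoxin or glutaredoxin was called by edgeR or DESeq2 at 7 d, where edgeR called 4.31% of all models higher and 2.12% lower. An unadjusted p under 0.05 was found for 0 of them at 7 d. They are named donor models here by description, and whether each supplies the enzyme with electrons was not tested. At 1 h edgeR called 1 of the 6 higher and 0 lower, beside 7.05% and 3.39% of all models. The 14 d counts were 1 and 0, beside 1.29% and 1.95%. At 1 h glutaredoxin 350385 rose with GR24 by 0.36 ± 0.0780 (edgeR adjusted p = 0.00163; 0.161 without acetone replicate 3). At 14 d thioredoxin 209220 stood at 0.15 ± 0.0398 (edgeR adjusted p = 0.0439), and DESeq2 did not call it (adjusted p = 0.0856), nor did edgeR without acetone replicate 1 (0.197) or 2 (0.0730) or GR24 replicate 1 (0.169) or 3 (0.218). Of the 6 donor models, the acetone steps called 1 higher and 1 lower from 1 h to 2 d. They called 2 and 0 from 2 d to 7 d, and 2 and 1 from 7 d to 14 d. The shares of all models were 20.7% and 18.7%, 12.1% and 13%, and 10.4% and 11.5%. Glutaredoxin-related 338051 stood at -0.49 ± 0.111 from 1 h to 2 d with acetone (edgeR adjusted p = 0.000540). Glutaredoxin 350385 stood at -0.67 ± 0.0956 from 7 d to 14 d with acetone (edgeR adjusted p = 1.00e-05). In the steps over time 209220 rose by 1.11 ± 0.0728 from 1 h to 2 d with acetone (edgeR adjusted p = 4.34e-14) and again by 0.29 ± 0.0695 to 7 d and 0.30 ± 0.0704 to 14 d (edgeR adjusted p = 0.00251 and 0.00177; the former 0.0531 without acetone replicate 1 at 7 d).

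Of 28 tested models for ribonucleotide synthesis, 1 was called higher and none lower with GR24 at 7 d, beside 4.31% and 2.12% of all models: CTP synthase 347660, which makes CTP from UTP, at 0.28 ± 0.0844 (edgeR adjusted p = 0.0275). DESeq2 did not call it (adjusted p = 0.0880), and it was lost without acetone replicate 1 (adjusted p = 0.637), acetone replicate 2 (0.0563) or GR24 replicate 2 (0.211). At 1 h the orotate phosphoribosyltransferase model 348549, of the pyrimidine pathway, rose by 0.73 ± 0.0891 (edgeR adjusted p = 7.51e-07) and the uridylate kinase/adenylate kinase model 336085 fell by 0.25 ± 0.0712 (adjusted p = 0.0189, which ranged to 0.287 over 10 alternative settings). These were the only calls at 1 h among 28 tested, beside 7.05% of all models higher and 3.39% lower. At 2 d no model was called by edgeR or DESeq2, beside 1.02% and 1.13%. There 4 higher and 4 lower had an unadjusted p under 0.05, and edgeR called 1 higher without acetone replicate 1. At 14 d 1 of 28 was called lower and none higher, beside 1.95% and 1.29%. This was 348549, at -0.27 ± 0.0586 (edgeR adjusted p = 0.00935). Its call was lost without acetone replicate 3 (adjusted p = 0.0821) or GR24 replicate 1 (0.0682).

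Many DNA replication fork and licensing models were higher with GR24 at 7 d. Of 47 tested, 24 were called higher with GR24 and none lower, with a median log2 fold change of 0.38, beside 4.31% of all models called higher and 2.12% lower. The count was 21 with DESeq2. Topoisomerase II 141416, which untangles replicated DNA, rose by 1.45 ± 0.104 (edgeR adjusted p = 6.89e-16). MCM5 292155, a model of 402 bases for part of the replicative helicase, rose by 1.64 ± 0.301 (edgeR adjusted p = 0.000134). This value was 1.22 without acetone replicate 1 and 2.75 without acetone replicate 2. A longer MCM5 model, 6028 of 1782 bases, was not among the up to 4 called models with the largest changes that were eligible. Its libraries were nonetheless apart at 7 d in log2 CPM centred on its own time-course mean. They stood at -0.095 and -0.057 with acetone and at 1.11 and 0.91 with GR24. Origin recognition complex subunit 6 (15005) rose by 1.46 ± 0.288 (edgeR adjusted p = 0.000260), and the DNA polymerase alpha-primase subunit B 89787 by 1.12 ± 0.135 (adjusted p = 9.75e-09).

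At the other times the fork list gave fewer calls. At 1 h 6 of 46 were called higher and 1 lower, beside 7.05% and 3.39% of all models, led by CDC45 340761, a helicase cofactor, at 0.74 ± 0.121 (edgeR adjusted p = 5.94e-05); 2 were called higher without acetone replicate 2, without acetone replicate 3 or without GR24 replicate 3. At 2 d and at 14 d edgeR and DESeq2 called none, with 8 higher and 1 lower, and 3 and 1, at an unadjusted p under 0.05. With a library left out, edgeR called 3 higher at 2 d without acetone replicate 2, 1 lower at 2 d without GR24 replicate 1, and 1 higher at 14 d without GR24 replicate 2. With acetone the list had 17 of 47 higher and 6 lower from 1 h to 2 d, 2 and 23 from 2 d to 7 d, and 0 and 20 from 7 d to 14 d, where 20.7% and 18.7%, 12.1% and 13%, and 10.4% and 11.5% of all models were called. With GR24 it had 32 and 6, then 2 and 0, then 0 and 33, beside 27.1% and 23.8%, 4.7% and 5.6%, and 11.8% and 13.2% of all models.

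In the root set, the small-subunit transcript was lower in the libraries titled root exudates and the large-subunit transcript did not pass the test. Model 80358 held 122.1 and 112.5 CPM without roots and 67.8, 69.0 and 84.5 CPM with root exudates. Its log2 fold change was -0.67 ± 0.109 (SE; edgeR adjusted p = 0.00219), a level 0.63 times that without roots, where 15.2% of 14752 models were called in either direction and 7.75% lower. Leaving out each library in turn kept the call, with a log2 fold change of -0.78 to -0.61 and an adjusted p of 0.000570 to 0.0370.

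Model 343286 held 108.7 and 112.7 CPM without roots and 105.0, 91.0 and 106.4 CPM with root exudates. The log2 fold change was -0.13 ± 0.0928 (edgeR adjusted p = 0.368), and it ran from -0.18 to -0.07 with each library left out. The ratio of small to large reads per base was 2.43 and 2.16 without roots and 1.40, 1.64 and 1.72 with root exudates. The means differed by -0.709 (exact two-sided permutation test, p = 0.1, the smallest that 10 arrangements allow), so this test could not pass 0.05 whatever the values, and the difference between the subunits was not tested otherwise.

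**Figure D4:**
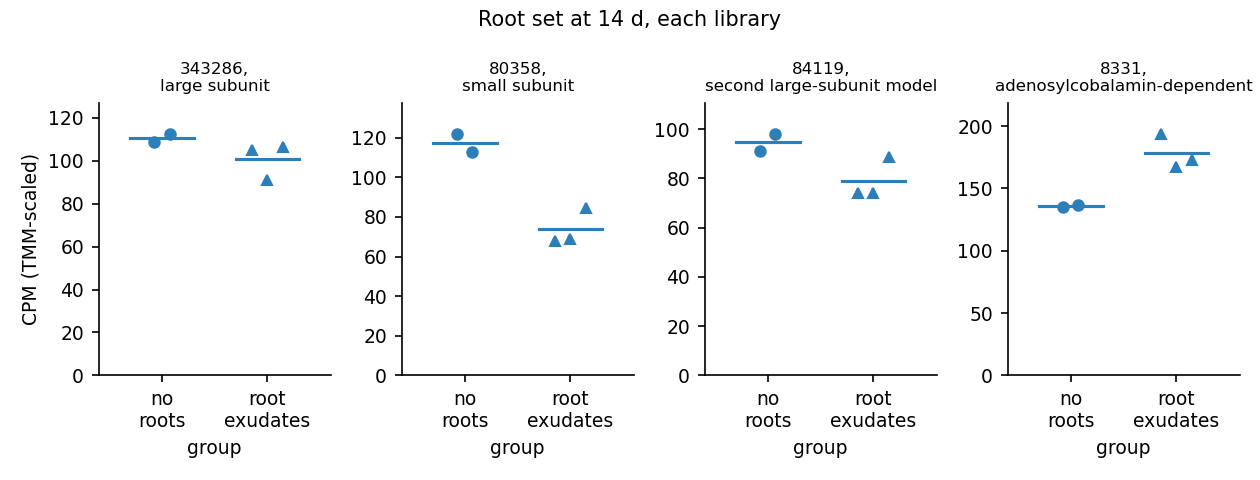
TMM-scaled CPM (y axes, each from 0 on its own scale) of the 4 ribonucleotide reductase models in the 5 libraries of the root set; circles are no roots, triangles root exudates, as titled, and bars are means. The root-exudate libraries lie below the no-root libraries for 343286, 80358 and 84119, and above them for 8331. Of these, 80358 and 8331 passed the edgeR test.

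The authors' deposited table, which follows its column headings, gives the small subunit 80358 a signed fold of 1.66 with a false discovery rate of 8.17e-05, and the large subunit 343286 a fold of 1.15 with a rate of 1. The libraries that are higher are the same as above, and their name differs. For 84119 and 8331 the authors' deposited table gives signed folds of 1.25 and -1.25, with rates of 0.979 and 0.456.

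The adenosylcobalamin-dependent model 8331 held 134.9 and 136.6 CPM without roots and 194.0, 167.1 and 173.1 CPM with root exudates, a log2 fold change of 0.39 ± 0.0852 (edgeR adjusted p = 0.0105). It lost its call without either no-root library (adjusted p = 0.103 without replicate 1 and 0.0716 without replicate 2). The second large-subunit model 84119 stood at -0.26 ± 0.105 (edgeR adjusted p = 0.118).

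None of 7 tested deoxynucleotide models was called in the root set by edgeR or DESeq2, where edgeR called 15.2% of all models in either direction. In edgeR, 1 lower had an unadjusted p under 0.05: thymidylate synthase 11517, at -0.44 ± 0.162 (edgeR adjusted p = 0.0950). dUTPase 338821 stood at -0.14 ± 0.0886 (adjusted p = 0.330). Of 6 donor models 3 were called higher and none lower, beside 7.46% of all models called higher, namely thioredoxin 343788 at 1.94 ± 0.301 (edgeR adjusted p = 0.00162), thioredoxin 209220 at 0.85 ± 0.0878 (adjusted p = 0.000153) and glutaredoxin 350385 at 0.63 ± 0.140 (adjusted p = 0.0120; 0.154 without no-root replicate 1). Of 28 ribonucleotide synthesis models 5 were called higher by edgeR and 0 by DESeq2; edgeR called 1 without no-root replicate 1 and 0 without no-root replicate 2 or root-exudate replicate 2 or 3.

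In the fork list 7 of 46 models were lower with root exudates and none higher, beside 7.75% and 7.46% of all models (edgeR; 0 higher at an unadjusted p under 0.05 and 0 by DESeq2, which called 5 lower). The count fell to 2 without no-root replicate 1, 3 without no-root replicate 2 and 2 without root-exudate replicate 2. Among them were MCM7 245895 at -0.77 ± 0.137 (edgeR adjusted p = 0.00398) and MCM6 39935 at -0.58 ± 0.0814 (adjusted p = 0.000925), subunits of the same helicase as MCM5. The catalytic primase subunit 2833 stood at -0.62 ± 0.141 (edgeR adjusted p = 0.0137; 0.155 without no-root replicate 1 and 0.0614 without root-exudate replicate 2).

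Models with a time course like that of each member were ranked by the root mean square difference of centred log2 CPM over 20 libraries. The ranking covered the 8614 models with an annotation or a named database hit and a mean of at least 5 CPM. Models without a description were left out. For 343286 the nearest were a predicted mitochondrial DNA helicase of the twinkle type (206964, 0.18), dUTPase (338821, 0.19), a B-type cyclin (40846, 0.22), a predicted steroid reductase (27076, 0.24) and a HARP/SMARCAL1-like chromatin remodeller (66425, 0.26). The median difference over all 8614 models was 1.01. The same 5 models came out over the 8 group means.

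For 80358 the nearest were a PCTAIRE-type kinase with a Cdc2 best hit (345038, 0.28), MCM5 (6028, 0.30), a conserved hypothetical protein (336424, 0.35), a spindle pole body protein of the Sad1 type (350108, 0.39) and a condensin subunit G (88490, 0.41), against a median of 1.31. Over the group means 4 of these 5 remained. The members differed from each other by 0.62. Of the described models ranked, 1.95% were nearer to 343286 than 80358 was, and 0.557% nearer to 80358 than 343286 was. These patterns share libraries, depth and scaling, and are a description with no test.

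**Figure D5:**
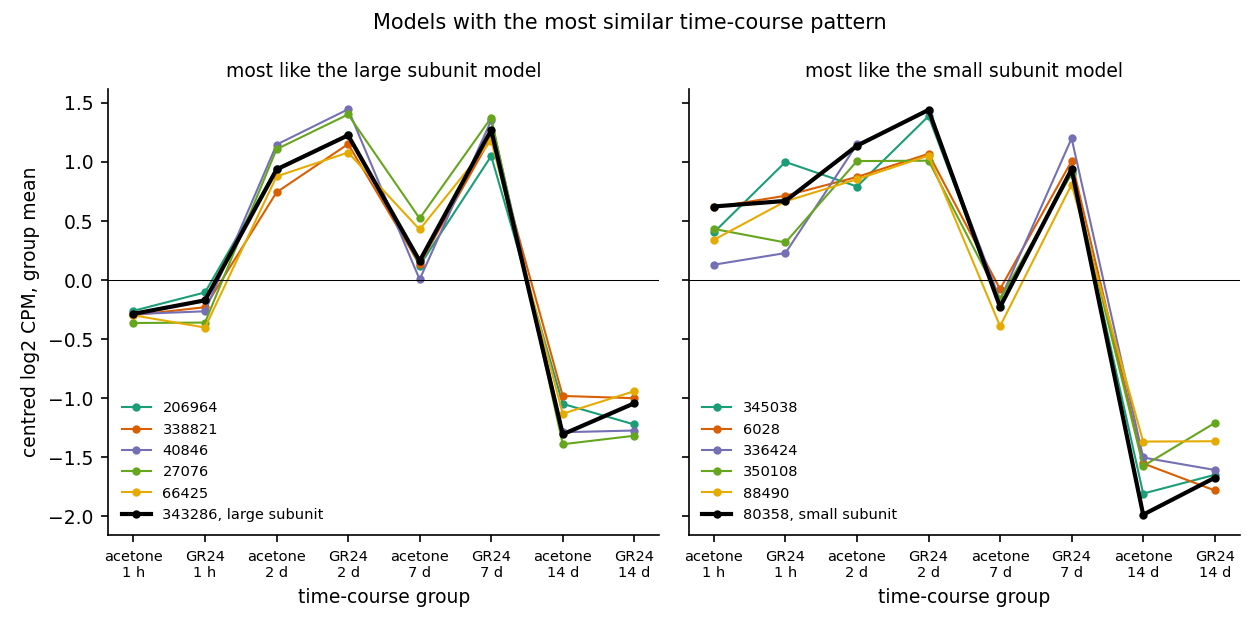
Group means of log2 CPM centred on each model's own mean (y axis) over the 8 time-course groups (x axis) for each member (thick black line) and the 5 models nearest to it (thin lines). All lines are lowest at 14 d, and at 7 d the GR24 point lies above the acetone point in each.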

How the data were processed

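The authors deposited 5 tables, each of 30282 gene models, with counts of total and unique gene reads, RPKM values and model length per library, per the file headers; the headers also name the score-type summaries and p-values of the authors' Baggerley's test, of which the fold and corrected p-value of the root table are quoted. Aligner: not given in the sources used here. RPKM divides reads by model length and by the library's gene reads, as recomputed from the counts. The total-read counts were analysed with edgeR 4.0.16 (filterByExpr, TMM, robust quasi-likelihood test, 2-sided, Benjamini-Hochberg adjusted p under 0.05 over all models tested) in R 4.3.3; DESeq2 1.42.0 was an alternative. Treatments were fitted on their own libraries, steps over time on 20 libraries together. A standard error is the log2 fold change over the square root of F. The 4 reductase models and all testable deoxynucleotide models were named; from each other list up to 4 models past the threshold with the largest change were eligible. Lists were matched by annotation words. Members and lists were chosen with earlier results of these data known. Alternatives were RLE size factors, DESeq2, no filter, unique reads, a replicate block and leaving out each library. The fits were tested on simulated data. Intervals and errors do not cover differences between cultures.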

Additional observations from a re-analysis of the deposited data

Results flagged for a closer look

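The effect of GR24 differed between times for 3 models in a test of the difference itself (edgeR interaction of GR24 with time over 20 libraries, 15712 models tested, 10.1% called): thymidylate synthase 11517 (adjusted p = 0.0216), dUTPase 338821 (adjusted p = 0.0290) and the second large-subunit model 84119 (adjusted p = 0.0402). Their largest log2 fold changes with GR24 were at 7 d, at 0.99, 1.08 and 0.92. Over 24 alternative settings, the interaction passed in 19 for 11517 (adjusted p up to 0.112), in 15 for 338821 (up to 0.109) and in 8 for 84119 (up to 0.150). The adenosylcobalamin-dependent model 8331 did not pass (adjusted p = 0.245). The 2 members were not tested here, since their time course was known when they were chosen.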

How the results depend on the processing

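With RLE size factors, DESeq2, no filter or unique reads, the members' log2 fold changes moved by less than their standard error, and RLE shifted the median of all models by -0.020 to 0.011 on the log2 scale. The count of models called moved by over 1.5 times in 4 settings. At 2 d it was 831 with no filter and 504 with the replicate block against 316, at 7 d 524 with DESeq2 against 917, and at 14 d 863 with no filter against 457; the cause was not tested. The replicate numbers share only a number: libraries of equal number had deviations from their group means correlated at 0.00115, -0.0319 and 0.00933 at 14 d, -0.0277 and 0.0192 at 1 h, -0.0641 and 0.0110 at 2 d, -0.0158 at 7 d, and -0.00850 and 0.00816 in the root set. With the replicate block at 2 d, the GR24 value was 0.50 for the large subunit, 0.51 for the small and 0.42 for 84119 (edgeR adjusted p = 0.00589), and 2 deoxynucleotide and 7 fork models were called higher. In the root set the block gave -0.78 for the small subunit, still called. It took the interaction of 11517 to an adjusted p of 0.0551 and of 84119 to 0.0717. At 7 d no paired analysis was possible because the groups share 1 number.

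With each library left out, counts of models called ran from 689 to 1418 at 1 h, 46 to 457 at 2 d, 574 to 1315 at 7 d, 250 to 513 at 14 d and 795 to 2919 in the root set. GR24 values of the small subunit ran from -0.056 to 0.17 at 1 h, -0.015 to 0.50 at 2 d, 1.10 to 1.25 at 7 d and 0.17 to 0.46 at 14 d, and those of the large subunit from 0.079 to 0.16, 0.040 to 0.49, 1.08 to 1.15 and 0.14 to 0.34. Steps of the small subunit from 1 h to 2 d ran from 0.32 to 0.78 with acetone and 0.53 to 0.98 with GR24, and from 2 d to 7 d from -1.63 to -1.17 and -0.73 to -0.25. For the large subunit with acetone these steps ran from 1.02 to 1.47 and from -1.03 to -0.58. Among values that had not passed, 84119 at 2 d ran from -0.022 (without GR24 replicate 1) to 0.43, and 8331 at 7 d from -0.054 (without acetone replicate 1) to 0.13, with -0.044 without GR24 replicate 2; the cause was not tested. Groups of 2 or 3 libraries limit the precision.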
